A study of Pan troglodytes with 8 samples.

Results

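Neurons (N) and basal intermediate progenitors (bIP) were compared in chimpanzee cerebral organoids. The 2 N libraries were set against the 2 bIP libraries, which are 4 of the 8 libraries of the series, and every gene of the deposited count table was considered. The organoids came from SandraA, a single chimpanzee induced pluripotent stem cell line, grown as embedded spheres and collected at week 8 within a window of 3 days either side. The labels name no genetic change and no treatment for any population. Dissociated cells were sorted by fluorescence into N, labelled as neurons positive for BCL11B, into bIP, and into 2 further populations, basal radial glia (bRG) and apical radial glia (aRG), which entered the model only to share its estimate of spread. The labels give no markers for the bIP gate and do not state if replicate libraries stem from different cultures. The p-values therefore rest on library-to-library spread, part or all of which may be technical. Each library was made from the RNA of 10000 cells with a Smart-seq2 type protocol and 12 to 17 PCR cycles, without molecular identifiers or strand marking.

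Intermediate progenitors are transit-amplifying cells of the developing cortex. They arise from radial glia, express the transcription factor EOMES (TBR2), divide a limited number of times away from the ventricle and yield glutamatergic neurons. Their passage is known for a relay of transcription factors, from PAX6 through NEUROG and EOMES to NEUROD and TBR1, and for signals through the Notch receptors. Young neurons have left the cell cycle, extend axons and dendrites, and assemble ion channels, receptors and synapses. BCL11B (CTIP2) marks neurons of the deep layers, in particular those that project below the cortex.

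Of 35382 genes tested, 376 were higher in N than in bIP and 524 were lower, at a Benjamini-Hochberg adjusted p under 0.05 from edgeR's quasi-likelihood test. These are 1.06% and 1.48% of the genes tested, the shares beside which the counts of every list below stand. Among the 16037 tested symbols that the human table also names, the shares were 1.96% (314 genes) and 2.56% (411 genes). At an unadjusted p under 0.05 there were 2433 higher and 2959 lower genes. DESeq2, a second test, called 1044 higher and 1529 lower among 31303 genes with an adjusted p. Of the genes called by edgeR, 232 were over 4-fold higher and 398 over 4-fold lower. The smallest absolute log2 fold change among called genes was 1.02, with medians of 2.28 for the higher and −2.58 for the lower ones, against −0.10 over all genes tested. Of the lower genes 32 had no counts in either N library, and 1 higher gene had none in bIP. Levels are given in CPM, which relates read counts to library size after scaling with TMM (trimmed mean of M values), and a log2 fold change is N over bIP with its standard error (SE). For lists, medians between libraries of the same number are on the log2(CPM + 1) scale, where all genes tested gave −0.01 for number 1 and −0.04 for number 2. The counts depended on single libraries. They were 450 higher and 700 lower without N replicate 1, 192 and 306 without N replicate 2, 308 and 484 without bIP replicate 1, and 111 and 304 without bIP replicate 2. With a fit to the 4 libraries of N and bIP alone they were 321 and 222. Higher genes made up 41.8% of calls, but 59.1% in the fit to 4 libraries and 26.7% without bIP replicate 2. No called gene tested in these fits changed sign, but without overlap between the populations a change of sign was hardly possible.

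**Figure D1:**
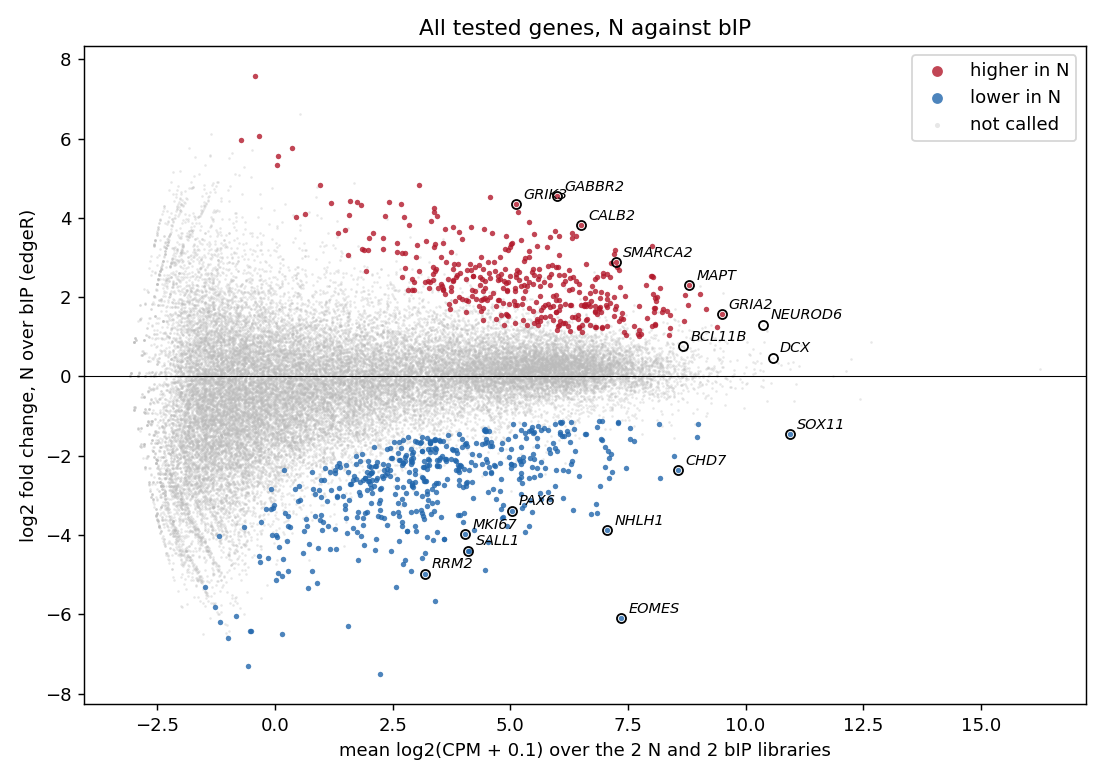
Each point is a tested gene, with its mean log2(CPM + 0.1) over the N and bIP libraries on the x axis and the edgeR log2 fold change, N over bIP, on the y axis. Red points were called higher and blue points lower in N, grey points were not called, and circles mark named genes. Genes without counts in a population are not drawn. BCL11B, DCX and NEUROD6 lie among the uncalled genes of high level, whereas EOMES and NHLH1 lie far below 0.

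The 4 libraries were of similar size, with 30320577 and 25324812 counts in N and 25888197 and 24707801 in bIP. The nuclear RNA MALAT1 took 8.51% and 6.37% of counts in N, against 8.57% and 6.47% in bIP, and its share was higher in the library numbered 1 of all 4 sorted populations. A gene was detected with at least 1 count for 37583 and 37254 symbols in N, against 40924 and 41299 in bIP. Libraries of a population differed far more than counting noise, with a chi-square per gene of 44.4 between the N libraries and 31.9 between the bIP libraries. All 900 called genes had both N libraries above or both below the bIP libraries, as had 45.1% of all genes tested. Within the populations the called genes did not spread evenly. Of the 376 higher genes 263 were higher in N replicate 2 than in N replicate 1, and of the 524 lower genes 342 were higher in N replicate 1. In bIP the opposite library stood out, with 246 of the 376 genes higher in bIP replicate 1 and 342 of the 524 higher in bIP replicate 2. Over all genes tested the N libraries were balanced, with 50.2% higher in N replicate 1. In sorted bulk samples, fewer cells of a type and less RNA per cell cannot be told apart, so each difference below is one of relative RNA level.

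The largest rises included genes of inhibitory and excitatory signalling. GABBR2, a subunit of the metabotropic GABA-B receptor, had 242 and 375 CPM in N, against 13.4 and 13.1 CPM in bIP (log2 fold change 4.54 with SE 0.68, adjusted p = 0.00439). GRIK3, a kainate-type glutamate receptor subunit, had 73.8 and 283 CPM in N, against 11.2 and 6.33 CPM in bIP (log2 fold change 4.35 with SE 0.72, adjusted p = 0.00785). For GRIK3 the N libraries were far apart. TNR, the extracellular matrix protein tenascin-R, had 75.9 and 286 CPM in N, against 10.1 and 14.3 CPM in bIP (log2 fold change 3.89 with SE 0.71, adjusted p = 0.0126). CALB2, the calcium-binding protein calretinin, had 334 and 376 CPM in N, against 34.9 and 15.7 CPM in bIP (log2 fold change 3.81 with SE 0.55, adjusted p = 0.00346). SHISA9, an auxiliary subunit of AMPA receptors, had 32.7 and 57.1 CPM in N, against 3.19 and 2.24 CPM in bIP (log2 fold change 4.05 with SE 0.59, adjusted p = 0.00385). Lack of overlap between the populations was a condition for the genes of largest rise, so it is no separate result for them. KCNQ5, a subunit of the M-type potassium channel, had 15.5 and 89.1 CPM in N, against 2.56 and 2.95 CPM in bIP (log2 fold change 4.24 with SE 0.96, adjusted p = 0.0374). FGF18, a secreted fibroblast growth factor, had 13.4 and 44.4 CPM in N, against 1.51 and 2.60 CPM in bIP (log2 fold change 3.81 with SE 0.64, adjusted p = 0.0086). MIR137HG, the host transcript of the microRNA miR-137, had 23.01 and 23.8 CPM in N, against 1.20 and 1.02 CPM in bIP, close to equal within each population. The other genes of the 14 largest rises were TMPRSS13, CLEC2L, ARHGAP20, RASGEF1A, VSTM2L and INKA1, with log2 fold changes of 4.84, 4.37, 4.35, 4.33, 4.13 and 4.06. RefSeq places TMPRSS13 over CD3E and INKA1 over UBA7, and without strand such reads cannot be told apart. INKA1 was not called without N replicate 1 (adjusted p = 0.0583). KCNQ5, FGF18, CLEC2L and INKA1 were not called without N replicate 2 (adjusted p = 0.276, 0.0896, 0.149 and 0.0878). KCNQ5 and CLEC2L were not called without bIP replicate 1 (adjusted p = 0.108 and 0.0531). KCNQ5, CLEC2L, RASGEF1A and INKA1 were not called without bIP replicate 2 (adjusted p = 0.132, 0.155, 0.0559 and 0.0786). INKA1 was not called in the fit to 4 libraries (adjusted p = 0.112). Values that moved by over 1.5 times without a library were those of KCNQ5 (2.50 without N replicate 2) and INKA1 (7.53 without bIP replicate 1).

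The largest falls were headed by transcription factors of the neurogenic relay. NEUROG1, a proneural factor, had 0 counts in both N libraries, against 78.7 and 40.4 CPM in bIP. With a floor of 3 counts in each library, it was at least 485-fold lower in N. NEUROD4, a later factor of the same family, had 0.619 and 0.0432 CPM in N, against 21.6 and 31.9 CPM in bIP (log2 fold change −6.29 with SE 0.99, adjusted p = 0.00576). EOMES had 31.2 and 10.96 CPM in N, against 1357 and 1540 CPM in bIP (log2 fold change −6.10 with SE 0.62, adjusted p = 0.000398). EBF2, a helix-loop-helix factor, had 0.889 and 2.37 CPM in N, against 38.3 and 128 CPM in bIP (log2 fold change −5.67 with SE 0.72, adjusted p = 0.00161). The genes of largest fall were likewise chosen for lack of overlap between the populations. RRM2, the small subunit of ribonucleotide reductase, had 1.28 and 1.99 CPM in N, against 34.99 and 66.95 CPM in bIP (log2 fold change −4.97 with SE 0.40, adjusted p = 0.000152). SALL1, a zinc-finger repressor, had 3.29 and 4.23 CPM in N, against 66.9 and 90.5 CPM in bIP (log2 fold change −4.39 with SE 0.31, adjusted p = 0.000152). ADCYAP1, the neuropeptide PACAP, had 1.62 and 1.04 CPM in N, against 31.1 and 35.8 CPM in bIP (log2 fold change −4.64 with SE 0.58, adjusted p = 0.00145). The remaining genes covered signalling and membrane proteins. CRABP1, a cytosolic binding protein of retinoic acid, had 6.26 and 1.90 CPM in N, against 92.8 and 79.5 CPM in bIP (log2 fold change −4.39 with SE 0.52, adjusted p = 0.00121). EPHA3, a receptor of ephrin-A ligands, had 5.49 and 3.62 CPM in N, against 53.6 and 213 CPM in bIP (log2 fold change −4.87 with SE 0.87, adjusted p = 0.0114), with bIP replicate 2 the high library. S1PR1, a sphingosine-1-phosphate receptor, and DIPK2A had log2 fold changes of −4.64 and −4.58. SLC4A11, a transporter of the bicarbonate family, was at −5.31 and MFNG, a glycosyltransferase that modifies Notch, at −4.91. CCNB2, a mitotic cyclin, was at −4.39. SLC4A11 was not called without N replicate 1 (adjusted p = 0.0884). EPHA3 and SLC4A11 were not called without N replicate 2 (adjusted p = 0.0535 and 0.0995). SLC4A11 was not called without bIP replicate 2 (adjusted p = 0.194). Over 1.5 times moved were the log2 fold changes of MFNG (−7.63 without N replicate 1) and SLC4A11 (−3.52 without bIP replicate 2).

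**Figure D2:**
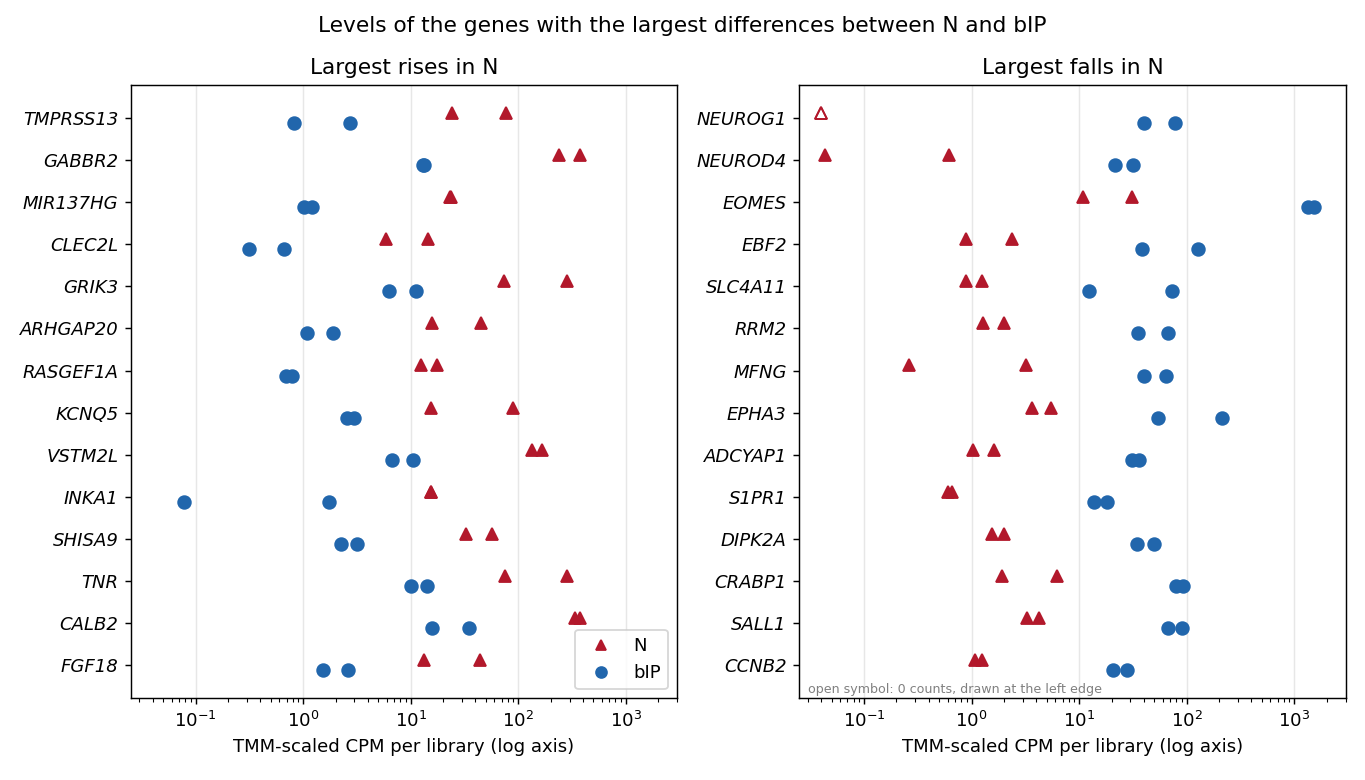
TMM-scaled CPM on a log axis in each library, for the 14 genes with the largest rises (left panel) and the 14 with the largest falls (right panel) among called genes that reached 10 CPM in the higher population. Red triangles are N libraries and blue circles bIP libraries, and an open symbol marks 0 counts drawn at the left edge. Lack of overlap between the populations was a further condition of the choice. NEUROG1 is at 0 in both N libraries.

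Of the 10 identity genes, EOMES, SOX2, PAX6 and MKI67 were called, all lower in N, and the others were not. BCL11B, the gene by which the neurons were labelled, had 488 and 589.6 CPM in N, against 286 and 348 CPM in bIP, and its level is given as a check of the sort only. It was higher in both N libraries, but it was not restricted to them. TBR1, a deep-layer factor that follows EOMES, had 466 and 439.8 CPM in N, against 284 and 266 CPM in bIP (log2 fold change 0.72 with SE 0.41, adjusted p = 0.448). NEUROD2 had 604 and 599 CPM in N, against 192 and 254 CPM in bIP (log2 fold change 1.43 with SE 0.47, adjusted p = 0.15) and NEUROD6 2377 and 1818 CPM in N, against 813 and 884 CPM in bIP (log2 fold change 1.31 with SE 0.45, adjusted p = 0.172). Both are factors of maturing glutamatergic neurons, and both N libraries lay above both bIP libraries. Neither passed the threshold, but NEUROD2 did with DESeq2 (adjusted p = 0.0404), and both did in the fit to 4 libraries (adjusted p = 0.0334 for NEUROD2 and 0.0396 for NEUROD6). DCX, a microtubule-associated protein of migrating neurons, had 1988 and 1644 CPM in N, against 1101 and 1526 CPM in bIP (log2 fold change 0.47 with SE 0.35, adjusted p = 0.582), and its log2 fold change was 0.26 without bIP replicate 1 and 0.72 without bIP replicate 2. NEUROD1, which acts between progenitor and neuron, had 64.7 and 19.6 CPM in N, against 43.5 and 105 CPM in bIP (log2 fold change −0.82 with SE 0.63, adjusted p = 0.596), with overlapping populations. Leaving out a library moved the NEUROD1 value to between −1.92 (without N replicate 1) and −0.045 (without bIP replicate 2). SLC17A7, the vesicular glutamate transporter VGLUT1, had 291 and 433 CPM in N, against 279 and 317 CPM in bIP (adjusted p = 0.842). SLC17A6, VGLUT2, had 55.3 and 64.2 CPM in N, against 74.2 and 71.5 CPM in bIP (adjusted p = 0.728). Transcripts that mark young glutamatergic neurons were present in both populations. The progenitor genes SOX2 and PAX6 passed the threshold. SOX2, a stem cell factor, had 24.98 and 11.7 CPM in N, against 83.2 and 72.6 CPM in bIP (log2 fold change −2.08 with SE 0.34, adjusted p = 0.00755), and PAX6, a dorsal progenitor factor, had 15.3 and 5.999 CPM in N, against 122 and 101 CPM in bIP (log2 fold change −3.38 with SE 0.41, adjusted p = 0.0013).

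All called genes of the intermediate progenitor list were lower in N. Of 21 tested intermediate progenitor genes, edgeR called 0 higher and 9 lower in N, where 0 and 17 had an unadjusted p under 0.05 and DESeq2 called 0 and 12. Their median log2 fold change was −1.87, with −1.15 and −2.03 between libraries numbered 1 and 2. Summed over the list, they reached 1336 and 1158 CPM in N, against 4412 and 5810 CPM in bIP. HES6, which opposes HES1, had 75.8 and 40.4 CPM in N, against 277 and 409.6 CPM in bIP (log2 fold change −2.56 with SE 0.37, adjusted p = 0.00346). DLL3, a Notch ligand that acts within the cell, had 52.2 and 79.1 CPM in N, against 211 and 492 CPM in bIP (log2 fold change −2.42 with SE 0.45, adjusted p = 0.014). INSM1, a zinc-finger factor of basal progenitor formation, had 17.1 and 3.84 CPM in N, against 73.6 and 76.8 CPM in bIP (log2 fold change −2.84 with SE 0.57, adjusted p = 0.0197). TMEM158 was at −1.57 (adjusted p = 0.0417) and NHLH1, a helix-loop-helix factor of newly born neurons, had 75.4 and 10.7 CPM in N, against 538 and 721 CPM in bIP (log2 fold change −3.87 with SE 0.66, adjusted p = 0.00892). The N libraries were far apart for NHLH1, and, as for every called gene, the populations did not overlap. DLL3, INSM1 and TMEM158 were named after their values were seen. BTG2, an antiproliferative gene of neurogenic divisions, had no counts in any library of the chimpanzee table. DLL3 was not called without N replicate 1 (adjusted p = 0.0503). TMEM158 was not called without N replicate 2 (adjusted p = 0.245). TMEM158 was not called without bIP replicate 1 (adjusted p = 0.109). DLL3 and TMEM158 were not called without bIP replicate 2 (adjusted p = 0.0944 and 0.158). INSM1 and TMEM158 were not called in the fit to 4 libraries (adjusted p = 0.0588 and 0.0755). A library moved the log2 fold change by over 1.5 times for INSM1 (−4.29 without N replicate 1) and NHLH1 (−5.88 without N replicate 1).

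The wider set of proneural and neurogenic transcription factors was mixed. Of 23 tested proneural and neurogenic transcription factors, edgeR called 0 higher and 6 lower in N, where 4 and 11 had an unadjusted p under 0.05 and DESeq2 called 2 and 9. The median of the list was −0.62, with −0.15 and −1.24 between libraries numbered 1 and 2. NEUROG1, NEUROD4, NHLH1 and INSM1, described above, were among the lower members. SOX11, a factor of early neuronal differentiation, had 1515 and 899.7 CPM in N, against 2867 and 3776 CPM in bIP (log2 fold change −1.46 with SE 0.28, adjusted p = 0.0161). SOX11 stayed abundant in N although it was lower there. SOX11 was not called without N replicate 2 (adjusted p = 0.111). SOX11 was not called without bIP replicate 2 (adjusted p = 0.128).

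Called radial glia genes were also lower in N, although neither population was sorted as radial glia. Of 24 tested radial glia genes, edgeR called 0 higher and 12 lower in N, where 0 and 15 had an unadjusted p under 0.05 and DESeq2 called 0 and 13. Over the list the median was −1.83, with −1.34 and −2.21 between libraries numbered 1 and 2. Summed over the list, they reached 2385 and 1660 CPM in N, against 2462 and 2648 CPM in bIP, where the radial glia libraries ranged higher, 5990 and 6587 CPM in bRG and 7470 and 8974 CPM in aRG. GLI3, a transcription factor of Hedgehog signalling, had 27.3 and 15.6 CPM in N, against 139.5 and 102 CPM in bIP (log2 fold change −2.49 with SE 0.31, adjusted p = 0.00145). VIM, the intermediate filament vimentin, had 54.9 and 32.8 CPM in N, against 167 and 153 CPM in bIP (log2 fold change −1.87 with SE 0.28, adjusted p = 0.00418). In bIP these genes lay between N and the radial glia, where bRG averaged 388 CPM for GLI3 and 722 CPM for VIM. The extracellular matrix protein tenascin-C, encoded by TNC, had 1.12 and 0.691 CPM in N, against 20.5 and 17.7 CPM in bIP (log2 fold change −4.38 with SE 0.67, adjusted p = 0.00486), named after its values were seen.

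Called Notch signalling genes were lower in N with a single exception. Of 23 tested Notch pathway genes, edgeR called 1 higher and 8 lower in N, where 2 and 12 had an unadjusted p under 0.05 and DESeq2 called 2 and 10. Lower members numbered 5 without N replicate 2. At the median the log2 fold change was −0.99, with −1.08 and −0.85 between libraries numbered 1 and 2. Among the receptors NOTCH3 had 7.38 and 5.31 CPM in N, against 48.4 and 58.3 CPM in bIP (log2 fold change −3.07 with SE 0.29, adjusted p = 0.000281). Of the target genes, HES1 had 4.14 and 2.89 CPM in N, against 13.2 and 22.9 CPM in bIP (log2 fold change −2.36 with SE 0.38, adjusted p = 0.00691), and HEY2, named after its values were seen, had 2.82 and 1.73 CPM in N, against 54.8 and 13.5 CPM in bIP (log2 fold change −3.90 with SE 0.73, adjusted p = 0.0143). MFNG, which glycosylates the receptors, had 3.17 and 0.259 CPM in N, against 64.7 and 39.9 CPM in bIP (log2 fold change −4.91 with SE 0.78, adjusted p = 0.00597). The single higher member was JAG2, a ligand of the Jagged type, with 170.2 and 229 CPM in N, against 75.8 and 57.4 CPM in bIP (log2 fold change 1.58 with SE 0.33, adjusted p = 0.0244), also named after its values were seen. HES5, a further target, was listed at 0 in all chimpanzee libraries. On the human genome it had 2.72 and 0.705 CPM in N, against 14.6 and 5.68 CPM in bIP (adjusted p = 0.168). HEY2 and JAG2 were not called without N replicate 2 (adjusted p = 0.0717 and 0.115). JAG2 was not called without bIP replicate 2 (adjusted p = 0.186). HES1 was not called in the fit to 4 libraries (adjusted p = 0.0612). Values that moved by over 1.5 times without a library were those of MFNG (−7.63 without N replicate 1) and HEY2 (−2.56 without bIP replicate 1).

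Called genes of mitosis were lower in N without exception. Of 26 tested mitosis genes, edgeR called 0 higher and 15 lower in N, where 0 and 20 had an unadjusted p under 0.05 and DESeq2 called 0 and 18. Lower members numbered 7 in the fit to 4 libraries. The middle log2 fold change of the list was −2.0, with −1.28 and −1.87 between libraries numbered 1 and 2. Summed over the list, they reached 254 and 169 CPM in N, against 582 and 796 CPM in bIP, with 2959 and 2727 CPM in bRG and 7284 and 5874 CPM in aRG. MKI67, a proliferation marker, had 4.56 and 3.93 CPM in N, against 43.3 and 90.4 CPM in bIP (log2 fold change −3.98 with SE 0.36, adjusted p = 0.000252). CDK1, the mitotic kinase, had 1.70 and 2.59 CPM in N, against 17.7 and 22.4 CPM in bIP (log2 fold change −3.22 with SE 0.32, adjusted p = 0.000362). AURKB, the kinase of the chromosomal passenger complex, had 2.40 and 2.37 CPM in N, against 21.9 and 57 CPM in bIP (log2 fold change −4.04 with SE 0.42, adjusted p = 0.000566). TOP2A, which untangles chromosomes, had 16.5 and 13.3 CPM in N, against 72.3 and 107 CPM in bIP (log2 fold change −2.59 with SE 0.28, adjusted p = 0.000699), and ASPM, a spindle-pole protein, 9.32 and 5.05 CPM in N, against 32.1 and 35.2 CPM in bIP (log2 fold change −2.23 with SE 0.36, adjusted p = 0.00647). Both were named after their values were seen. In the radial glia MKI67 averaged 294 CPM in bRG and 767 CPM in aRG.

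Called members of the replication and G1 lists were all lower in N. Of 25 tested DNA replication genes, edgeR called 0 higher and 4 lower in N, where 1 and 11 had an unadjusted p under 0.05 and DESeq2 called 0 and 10. Lower members numbered 7 without bIP replicate 1 and 2 in the fit to 4 libraries. The list had a median log2 fold change of −0.66, with −0.31 and −0.89 between libraries numbered 1 and 2. The called members were RRM2, MCM5, MCM10 and GINS2. MCM5, a subunit of the replicative helicase, had 5.45 and 4.79 CPM in N, against 31.8 and 29.7 CPM in bIP (log2 fold change −2.58 with SE 0.38, adjusted p = 0.00407). MCM10 had 3.40 and 3.62 CPM in N, against 14.4 and 15.3 CPM in bIP (log2 fold change −2.08 with SE 0.35, adjusted p = 0.00773), and GINS2, a partner of the helicase, 20.3 and 12.04 CPM in N, against 46.4 and 56.5 CPM in bIP (log2 fold change −1.67 with SE 0.32, adjusted p = 0.0161). Of 23 tested G1 regulators and cell cycle exit genes, edgeR called 0 higher and 3 lower in N, where 3 and 8 had an unadjusted p under 0.05 and DESeq2 called 3 and 6. Lower members numbered 8 without N replicate 1 and 0 in the fit to 4 libraries. Members had a median of −0.34, with −0.04 and −0.86 between libraries numbered 1 and 2. The lower ones were E2F2, an activator of S phase genes (log2 fold change −3.84 with SE 0.62, adjusted p = 0.00656), CDKN2C, an inhibitor of CDK4 and CDK6 (log2 fold change −3.89 with SE 0.65, adjusted p = 0.00775), and CDK2, a kinase of the G1 to S transition (log2 fold change −2.10 with SE 0.50, adjusted p = 0.0492). The last was near the threshold. GINS2 and CDK2 were not called without N replicate 2 (adjusted p = 0.115 and 0.168). GINS2 and CDK2 were not called without bIP replicate 2 (adjusted p = 0.0877 and 0.194). MCM10, GINS2, E2F2, CDKN2C and CDK2 were not called in the fit to 4 libraries (adjusted p = 0.0704, 0.0581, 0.0521, 0.0845 and 0.175). Over 1.5 times moved were the log2 fold changes of CDK2 (−3.31 without N replicate 1).

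The position of the called genes over all 4 populations differed by direction. Of the 376 genes higher in N, 372 (98.9%) had their highest mean in N, against 64.3% of all genes that were higher in N than in bIP. Of the 524 lower genes, 151 (28.8%) were highest in bIP, 338 (64.5%) in aRG and 35 (6.68%) in bRG. Over all genes lower in N than in bIP, the shares were 47.0%, 30.9% and 22.1%. Most of the called falls thus concerned genes with a higher mean in radial glia than in bIP. The shares over all genes include differences of any size. Called genes differed by at least 1.02 log2 units between N and bIP, so the shares are not compared like with like. EOMES, NEUROG1 and NHLH1 were among those highest in bIP, and MKI67, NOTCH3 and VIM were highest in aRG.

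**Figure D3:**
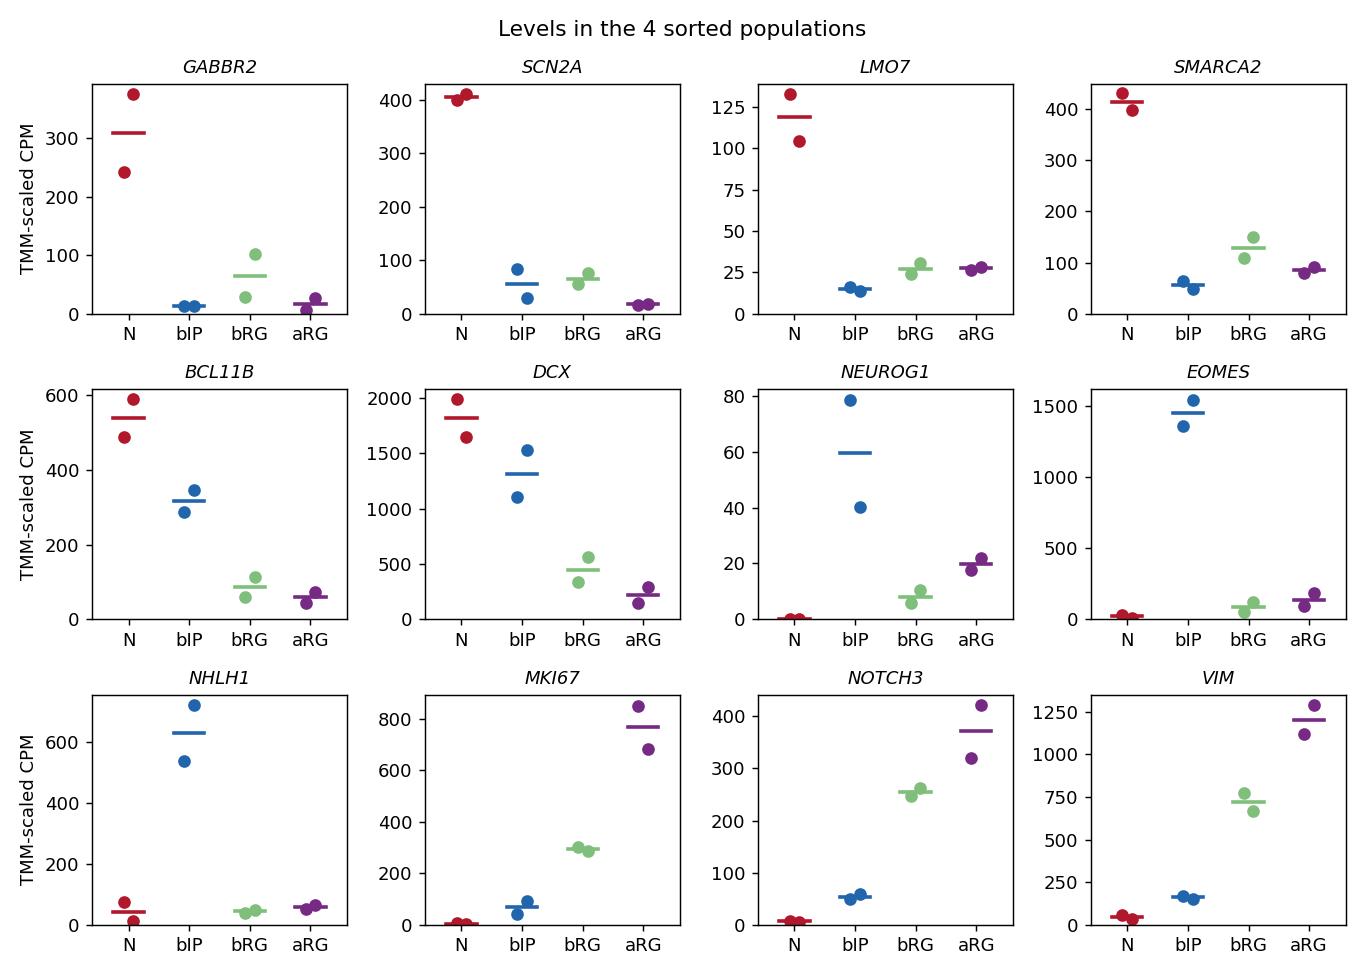
TMM-scaled CPM of 12 genes in the 4 sorted populations, N, bIP, bRG and aRG from left to right. Each point is a library, each line the mean of 2 libraries, and each panel has its own linear axis from 0. GABBR2, SCN2A, LMO7 and SMARCA2 stand out in N, EOMES, NEUROG1 and NHLH1 in bIP, and MKI67, NOTCH3 and VIM in the radial glia, while BCL11B and DCX are shared by N and bIP.

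Several genes of deep cortical layers were higher in N. Of 20 tested deep-layer genes, edgeR called 6 higher and 1 lower in N, where 11 and 3 had an unadjusted p under 0.05 and DESeq2 called 7 and 1. Higher members numbered 3 without N replicate 2 and 3 without bIP replicate 1. Their median log2 fold change was 0.79, with 0.74 and 0.79 between libraries numbered 1 and 2. LMO7, a scaffold protein of cell junctions, had 133 and 105 CPM in N, against 16.2 and 13.6 CPM in bIP (log2 fold change 3.0 with SE 0.30, adjusted p = 0.000367). FEZF2, the factor that specifies subcerebral projection neurons, had 474 and 465 CPM in N, against 180.5 and 124 CPM in bIP (log2 fold change 1.63 with SE 0.26, adjusted p = 0.0065). LMO3, a LIM-domain cofactor, had 146 and 480 CPM in N, against 22.5 and 31.5 CPM in bIP (log2 fold change 3.54 with SE 0.57, adjusted p = 0.00656). LMO3 lies at a locus that RefSeq shows overlapping MGST1. SOX5, a factor of subplate and layer identity, had 218 and 346 CPM in N, against 76.2 and 126 CPM in bIP (log2 fold change 1.48 with SE 0.31, adjusted p = 0.0273), and CNTNAP2, an axonal adhesion protein, 756 and 967 CPM in N, against 178 and 237 CPM in bIP (log2 fold change 2.06 with SE 0.40, adjusted p = 0.0175). LDB2, a LIM-domain binding cofactor, was at 2.43 (adjusted p = 0.0299). SOX5, CNTNAP2 and LDB2 were named after their values were seen. FOXP2, a deep-layer forkhead factor, went the other way with 29.5 and 8.33 CPM in N, against 155 and 170 CPM in bIP (log2 fold change −3.10 with SE 0.53, adjusted p = 0.00882). SOX5, CNTNAP2 and LDB2 were not called without N replicate 2 (adjusted p = 0.164, 0.0515 and 0.125). SOX5, CNTNAP2 and LDB2 were not called without bIP replicate 1 (adjusted p = 0.173, 0.0831 and 0.12). FEZF2 and CNTNAP2 were not called without bIP replicate 2 (adjusted p = 0.0871 and 0.0527). SOX5 and LDB2 were not called in the fit to 4 libraries (adjusted p = 0.0862 and 0.0937).

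The shares over all genes tested, 1.06% higher and 1.48% lower, apply to the lists of this paragraph. Of 16 tested upper-layer genes, edgeR called 2 higher and 1 lower in N, where 3 and 7 had an unadjusted p under 0.05 and DESeq2 called 2 and 5. The median of the list was −0.36, with −0.37 and −0.87 between libraries numbered 1 and 2. PLXND1, a semaphorin receptor, had 326 and 351 CPM in N, against 79.2 and 33.5 CPM in bIP (log2 fold change 2.59 with SE 0.45, adjusted p = 0.0102), and RORB, a nuclear receptor of layer IV, 72.7 and 81.95 CPM in N, against 29.4 and 28.6 CPM in bIP (log2 fold change 1.42 with SE 0.28, adjusted p = 0.0186). POU3F2 (BRN2), a factor of late progenitors and upper layers, had 16.7 and 9.45 CPM in N, against 29.8 and 127 CPM in bIP (log2 fold change −2.58 with SE 0.62, adjusted p = 0.0489), with bIP replicate 2 far above bIP replicate 1. Of 13 tested Cajal-Retzius genes, edgeR called 1 higher and 3 lower in N, where 1 and 8 had an unadjusted p under 0.05 and DESeq2 called 1 and 6. Lower members numbered 5 without N replicate 1. Over the list the median was −2.10, with −1.03 and −1.97 between libraries numbered 1 and 2. Its only higher member was CALB2, whose levels are given above. The lower members were the factors EBF1 (log2 fold change −3.40 with SE 0.77, adjusted p = 0.0371), EBF2 and EBF3 (log2 fold change −3.53 with SE 0.52, adjusted p = 0.00397). RELN, the secreted protein by which Cajal-Retzius cells are known, had 60.5 and 13.3 CPM in N, against 47.3 and 37.3 CPM in bIP (adjusted p = 0.909). NR2F2, a nuclear receptor on that list, was listed at 0 throughout the chimpanzee table. On the human genome it had 14.8 and 16.3 CPM in N, against 49.7 and 54.1 CPM in bIP (log2 fold change −1.74 with SE 0.36, adjusted p = 0.0209). Of 18 tested inhibitory neuron genes, edgeR called 0 higher and 1 lower in N, where 1 and 4 had an unadjusted p under 0.05 and DESeq2 called 1 and 3. At the median the log2 fold change was −1.16, with −0.55 and −0.23 between libraries numbered 1 and 2. GAD1, the GABA-producing enzyme, was at or below 4.41 CPM in all 4 libraries. RORB and POU3F2 were not called without N replicate 2 (adjusted p = 0.0896 and 0.205). RORB and EBF1 were not called without bIP replicate 1 (adjusted p = 0.0879 and 0.0735). PLXND1, RORB, POU3F2 and EBF1 were not called without bIP replicate 2 (adjusted p = 0.0559, 0.138, 0.439 and 0.0504). POU3F2 and EBF1 were not called in the fit to 4 libraries (adjusted p = 0.0921 and 0.0991). A library moved the log2 fold change by over 1.5 times for EBF1 (−5.87 without N replicate 1) and POU3F2 (−1.19 without bIP replicate 2).

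Receptors for glutamate and GABA had the highest median of fitted log2 fold changes among the 33 lists, although between libraries numbered 1 the synaptic organiser list had the higher median (1.0 against 0.88). Of 35 tested glutamate and GABA receptor genes, edgeR called 10 higher and 0 lower in N, where 21 and 2 had an unadjusted p under 0.05 and DESeq2 called 17 and 1. Higher members numbered 5 without bIP replicate 2. The middle log2 fold change of the list was 1.56, with 0.88 and 1.48 between libraries numbered 1 and 2. Summed over the list, they reached 4201 and 5745 CPM in N, against 1584 and 1355 CPM in bIP. GRIA1, an AMPA receptor subunit, had 498 and 1214 CPM in N, against 107 and 69.3 CPM in bIP (log2 fold change 3.28 with SE 0.60, adjusted p = 0.0128). GRIA2, the AMPA subunit that limits calcium entry, had 1420 and 1095 CPM in N, against 508 and 342 CPM in bIP (log2 fold change 1.56 with SE 0.35, adjusted p = 0.0359). GRIN2B, an NMDA receptor subunit of the fetal brain, had 215 and 264 CPM in N, against 29.6 and 11.2 CPM in bIP (log2 fold change 3.55 with SE 0.65, adjusted p = 0.0126). Ionotropic glutamate receptors of 3 classes were called, since the kainate subunits GRIK3, above, and GRIK2 also passed. GRIK2 had 61.5 and 154 CPM in N, against 8.82 and 9.60 CPM in bIP (log2 fold change 3.55 with SE 0.58, adjusted p = 0.00741). Among GABA-A subunits, GABRA3 had 40.6 and 50.5 CPM in N, against 8.39 and 5.70 CPM in bIP (log2 fold change 2.69 with SE 0.42, adjusted p = 0.00564). GABRA2 was at 1.63 (adjusted p = 0.0115). GRIA1, GRIA2, GRIN2B and GABRA2 were named after their values were seen. GRIA2 was not called without N replicate 1 (adjusted p = 0.0924). GABRA2 was not called without bIP replicate 1 (adjusted p = 0.0503). GRIA1, GRIA2, GRIN2B and GABRA2 were not called without bIP replicate 2 (adjusted p = 0.0759, 0.254, 0.0656 and 0.0961).

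Some genes of both sides of the synapse were called higher in N. Of 34 tested synaptic organiser and postsynaptic genes, edgeR called 8 higher and 0 lower in N, where 20 and 1 had an unadjusted p under 0.05 and DESeq2 called 14 and 1. Higher members numbered 5 without N replicate 2 and 2 without bIP replicate 2. The list had a median log2 fold change of 1.06, with 1.0 and 0.93 between libraries numbered 1 and 2. DLG2, a scaffold of the postsynaptic density, had 149 and 175 CPM in N, against 34.02 and 36.9 CPM in bIP (log2 fold change 2.19 with SE 0.33, adjusted p = 0.00428). DLGAP2, a scaffold partner, had 41.99 and 57.96 CPM in N, against 10.8 and 7.36 CPM in bIP (log2 fold change 2.46 with SE 0.39, adjusted p = 0.00604). LRRTM4, an organiser of excitatory synapses, had 141 and 178 CPM in N, against 15.6 and 10.9 CPM in bIP (log2 fold change 3.59 with SE 0.57, adjusted p = 0.00621), and SLITRK5, a synaptic adhesion protein, 142 and 134 CPM in N, against 48.5 and 28.8 CPM in bIP (log2 fold change 1.83 with SE 0.30, adjusted p = 0.00742). As for all called genes, the populations did not overlap, and here the N libraries were close to each other. CAMK2B, a subunit of the calcium/calmodulin kinase II, had 257 and 372 CPM in N, against 58.7 and 44.2 CPM in bIP (log2 fold change 2.61 with SE 0.51, adjusted p = 0.0186), and GPHN, the scaffold of inhibitory synapses gephyrin, 78.8 and 74.7 CPM in N, against 37.1 and 24.6 CPM in bIP (log2 fold change 1.31 with SE 0.29, adjusted p = 0.0362). Both were named after their values were seen. GPHN was not called without N replicate 1 (adjusted p = 0.0891). CAMK2B and GPHN were not called without N replicate 2 (adjusted p = 0.0515 and 0.103). DLGAP2, SLITRK5, CAMK2B and GPHN were not called without bIP replicate 2 (adjusted p = 0.0555, 0.0757, 0.106 and 0.306). GPHN was not called in the fit to 4 libraries (adjusted p = 0.0862).

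Of 32 tested synaptic vesicle and release genes, edgeR called 4 higher and 1 lower in N, where 18 and 1 had an unadjusted p under 0.05 and DESeq2 called 13 and 1. Higher members numbered 1 without N replicate 2, 0 without bIP replicate 2 and 8 in the fit to 4 libraries. Members had a median of 0.94, with 0.83 and 0.96 between libraries numbered 1 and 2. DOC2B, a calcium sensor of spontaneous release, had 45.8 and 50.8 CPM in N, against 17.2 and 11.1 CPM in bIP (log2 fold change 1.77 with SE 0.33, adjusted p = 0.0135). SYT4, an atypical synaptotagmin, had 669 and 581 CPM in N, against 109.9 and 110.1 CPM in bIP (log2 fold change 2.51 with SE 0.48, adjusted p = 0.0167). PCLO, the active zone scaffold piccolo, had 479 and 599.9 CPM in N, against 218 and 131 CPM in bIP (log2 fold change 1.63 with SE 0.32, adjusted p = 0.0174). SYN2, the vesicle phosphoprotein synapsin II, had 47.6 and 77.4 CPM in N, against 9.48 and 13.8 CPM in bIP (log2 fold change 2.42 with SE 0.53, adjusted p = 0.0315) and was named after its values were seen. The lower member was VAMP1, a vesicle SNARE, with 2.13 and 4.06 CPM in N, against 13.7 and 14.6 CPM in bIP (log2 fold change −2.19 with SE 0.43, adjusted p = 0.0183), whose locus RefSeq shows overlapping CD27 and TAPBPL. VAMP1 was not called without N replicate 1 (adjusted p = 0.0767). DOC2B, PCLO and SYN2 were not called without N replicate 2 (adjusted p = 0.0535, 0.072 and 0.127). SYT4 and SYN2 were not called without bIP replicate 1 (adjusted p = 0.0536 and 0.125). DOC2B, SYT4, PCLO, SYN2 and VAMP1 were not called without bIP replicate 2 (adjusted p = 0.135, 0.0794, 0.163, 0.0814 and 0.0702). VAMP1 was not called in the fit to 4 libraries (adjusted p = 0.0906).

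Some voltage-gated channels and membrane transporters were also called higher in N. Of 38 tested voltage-gated ion channel genes, edgeR called 7 higher and 1 lower in N, where 20 and 3 had an unadjusted p under 0.05 and DESeq2 called 11 and 2. Higher members numbered 3 without N replicate 2 and 1 without bIP replicate 2. Their median log2 fold change was 0.69, with 0.62 and 0.87 between libraries numbered 1 and 2. SCN2A, the main sodium channel of developing cortical axons, had 399 and 410 CPM in N, against 83.1 and 29.3 CPM in bIP (log2 fold change 2.85 with SE 0.41, adjusted p = 0.00366). CACNA1D and CACNA1C, pore subunits of L-type calcium channels, had 65.2 and 82.1 CPM in N, against 15.7 and 15.7 CPM in bIP (log2 fold change 2.23 with SE 0.39, adjusted p = 0.0104) and 84.99 and 130 CPM in N, against 33.4 and 26.9 CPM in bIP (log2 fold change 1.83 with SE 0.38, adjusted p = 0.0232). SCN9A, a further sodium channel, had 44.5 and 20.8 CPM in N, against 7.15 and 5.19 CPM in bIP (log2 fold change 2.40 with SE 0.46, adjusted p = 0.0166). The RefSeq locus of CACNA1C overlaps DCP1B. CACNA1E, an R-type calcium channel, had 279 and 620.2 CPM in N, against 54.2 and 50.6 CPM in bIP (log2 fold change 3.10 with SE 0.71, adjusted p = 0.0395), and SCN3B, an auxiliary sodium channel subunit, 532 and 571 CPM in N, against 195 and 144 CPM in bIP (log2 fold change 1.70 with SE 0.36, adjusted p = 0.0278). The lower channel gene was CACNA2D1, an auxiliary calcium channel subunit, with 145 and 96.2 CPM in N, against 316 and 281 CPM in bIP (log2 fold change −1.30 with SE 0.30, adjusted p = 0.0437). CACNA1E, SCN3B and CACNA2D1 were named after their values were seen. SCN9A was not called without N replicate 1 (adjusted p = 0.105). CACNA1C, CACNA1E, SCN3B, CACNA2D1 and KCNQ5 were not called without N replicate 2 (adjusted p = 0.13, 0.127, 0.0737, 0.254 and 0.276). CACNA1C, CACNA1E, CACNA2D1 and KCNQ5 were not called without bIP replicate 1 (adjusted p = 0.0543, 0.098, 0.147 and 0.108). CACNA1D, CACNA1C, SCN9A, CACNA1E, SCN3B, CACNA2D1 and KCNQ5 were not called without bIP replicate 2 (adjusted p = 0.0649, 0.156, 0.122, 0.156, 0.191, 0.116 and 0.132). SCN9A and CACNA2D1 were not called in the fit to 4 libraries (adjusted p = 0.0511 and 0.0511). Values that moved by over 1.5 times without a library were those of KCNQ5 (2.50 without N replicate 2).

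Of 22 tested neurotransmitter and chloride transporter genes, edgeR called 4 higher and 0 lower in N, where 9 and 1 had an unadjusted p under 0.05 and DESeq2 called 8 and 0. Higher members numbered 2 without N replicate 2, 2 without bIP replicate 1 and 1 without bIP replicate 2. The median of the list was 0.69, with 0.41 and 0.74 between libraries numbered 1 and 2. The list, despite its name, also holds cation exchangers. Among these, SLC8A1, a sodium-calcium exchanger, had 128 and 269 CPM in N, against 29.3 and 32.3 CPM in bIP (log2 fold change 2.69 with SE 0.42, adjusted p = 0.00544). SLC24A2, an exchanger that also carries potassium, had 55.3 and 142 CPM in N, against 10.4 and 11.2 CPM in bIP (log2 fold change 3.20 with SE 0.66, adjusted p = 0.0242). SLC6A17, a vesicular transporter of neutral amino acids, had 88.3 and 111 CPM in N, against 24.9 and 10.8 CPM in bIP (log2 fold change 2.48 with SE 0.48, adjusted p = 0.0163), and SLC1A6, a glutamate transporter, 91.6 and 147 CPM in N, against 36.9 and 37.96 CPM in bIP (log2 fold change 1.67 with SE 0.38, adjusted p = 0.0401). As with every called gene, the populations did not overlap. SLC24A2 and SLC1A6 were not called without N replicate 2 (adjusted p = 0.114 and 0.197). SLC24A2 and SLC1A6 were not called without bIP replicate 1 (adjusted p = 0.0729 and 0.131). SLC24A2, SLC6A17 and SLC1A6 were not called without bIP replicate 2 (adjusted p = 0.093, 0.0953 and 0.17).

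Some genes of the cytoskeleton, transport motors and migration passed the threshold. Over all genes tested, 1.06% were called higher and 1.48% lower. Of 32 tested neuronal cytoskeleton genes, edgeR called 2 higher and 1 lower in N, where 13 and 1 had an unadjusted p under 0.05 and DESeq2 called 7 and 1. Over the list the median was 0.47, with 0.76 and 0.30 between libraries numbered 1 and 2. MAPT, the axonal microtubule protein tau, had 949 and 1049 CPM in N, against 244 and 162 CPM in bIP (log2 fold change 2.30 with SE 0.42, adjusted p = 0.0124), and ANK2, a scaffold beneath the axonal membrane, 448 and 539.9 CPM in N, against 141 and 156 CPM in bIP (log2 fold change 1.74 with SE 0.32, adjusted p = 0.0124). STMN2, a regulator of microtubule assembly in growth cones, had 759 and 469.7 CPM in N, against 272 and 225 CPM in bIP (adjusted p = 0.1; 0.0264 by DESeq2) and was named after its values were seen. ENC1, an actin-associated protein, was lower with 50.2 and 18.04 CPM in N, against 276 and 481 CPM in bIP (log2 fold change −3.47 with SE 0.45, adjusted p = 0.00172). Of 15 tested neuronal transport motor genes, edgeR called 1 higher and 0 lower in N, where 6 and 0 had an unadjusted p under 0.05 and DESeq2 called 2 and 0. At the median the log2 fold change was 0.46, with 0.64 and 0.38 between libraries numbered 1 and 2. KIFAP3, the adaptor of kinesin-2, had 174 and 151 CPM in N, against 60.9 and 58.8 CPM in bIP (log2 fold change 1.44 with SE 0.27, adjusted p = 0.0157). Of 20 tested migration and reelin response genes, edgeR called 2 higher and 2 lower in N, where 9 and 3 had an unadjusted p under 0.05 and DESeq2 called 7 and 3. The middle log2 fold change of the list was 0.63, with 0.44 and 0.22 between libraries numbered 1 and 2. DAB1, the adaptor that relays the reelin signal, had 159 and 232 CPM in N, against 19.9 and 14.5 CPM in bIP (log2 fold change 3.51 with SE 0.35, adjusted p = 0.000398). SRGAP2, which shapes membrane protrusions, had 201 and 202 CPM in N, against 80.2 and 47.4 CPM in bIP (log2 fold change 1.66 with SE 0.33, adjusted p = 0.0196), at a locus RefSeq shows overlapping FAM72A. RND3, an atypical small GTPase of migrating neurons, fell with 13.03 and 10.1 CPM in N, against 117 and 195 CPM in bIP (log2 fold change −3.76 with SE 0.37, adjusted p = 0.000329). ANK2 and KIFAP3 were not called without bIP replicate 1 (adjusted p = 0.0647 and 0.0738). MAPT, ANK2, KIFAP3 and SRGAP2 were not called without bIP replicate 2 (adjusted p = 0.0894, 0.0683, 0.121 and 0.175).

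Axon guidance genes changed in both directions. Of 50 tested axon guidance genes, edgeR called 7 higher and 5 lower in N, where 14 and 12 had an unadjusted p under 0.05 and DESeq2 called 11 and 9. Higher members numbered 4 without bIP replicate 1 and 3 without bIP replicate 2 and lower members numbered 3 without N replicate 2 and 3 without bIP replicate 2. The list had a median log2 fold change of 0.17, with 0.50 and −0.25 between libraries numbered 1 and 2. Among ligands, SLIT3 had 41.5 and 33.9 CPM in N, against 6.37 and 4.17 CPM in bIP (log2 fold change 2.84 with SE 0.45, adjusted p = 0.00565), SLIT1 779 and 862 CPM in N, against 215 and 258 CPM in bIP (log2 fold change 1.80 with SE 0.33, adjusted p = 0.0137) and EFNA5, an ephrin, 52.4 and 121 CPM in N, against 17.1 and 18.4 CPM in bIP (log2 fold change 2.29 with SE 0.38, adjusted p = 0.00752). ROBO2, a Slit receptor, moved opposite to both Slit ligands, with 61.5 and 77.7 CPM in N, against 186 and 391 CPM in bIP (log2 fold change −2.05 with SE 0.36, adjusted p = 0.0102). SEMA4D, a transmembrane semaphorin, had 278 and 432 CPM in N, against 89.4 and 82.6 CPM in bIP (log2 fold change 2.04 with SE 0.35, adjusted p = 0.00952). NRP1, a co-receptor of class 3 semaphorins, had 10.9 and 6.08 CPM in N, against 55.5 and 73.2 CPM in bIP (log2 fold change −2.92 with SE 0.39, adjusted p = 0.00221), and PLXNA4, its plexin partner, 143 and 102 CPM in N, against 535 and 917 CPM in bIP (log2 fold change −2.57 with SE 0.47, adjusted p = 0.0125). NRP1 and PLXNA4 were thus lower in N, whereas the semaphorin receptor PLXND1, above, was higher (log2 fold change 2.59 with SE 0.45, adjusted p = 0.0102). UNC5B, a netrin receptor of repulsion, had 12.3 and 18.2 CPM in N, against 61.4 and 78.4 CPM in bIP (log2 fold change −2.20 with SE 0.38, adjusted p = 0.0102), whereas NEO1, the netrin-related receptor neogenin, had 193 and 348 CPM in N, against 57.1 and 81.9 CPM in bIP (log2 fold change 1.96 with SE 0.38, adjusted p = 0.0166). EPHA5, an ephrin receptor, was at 2.25 (adjusted p = 0.0269), and the fifth lower member was EPHA3, above. SLIT1, ROBO2, PLXNA4, UNC5B, NEO1 and EPHA5 were named after their values were seen. The RefSeq locus of SEMA4D overlaps SECISBP2. PLXNA4, NEO1, EPHA5 and EPHA3 were not called without N replicate 2 (adjusted p = 0.0675, 0.0903, 0.0845 and 0.0535). SLIT1, NEO1 and EPHA5 were not called without bIP replicate 1 (adjusted p = 0.0737, 0.0882 and 0.0924). SLIT1, ROBO2, SEMA4D, PLXNA4 and EPHA5 were not called without bIP replicate 2 (adjusted p = 0.0586, 0.0794, 0.0649, 0.0523 and 0.098).

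Of 49 tested neural adhesion genes, edgeR called 10 higher and 3 lower in N, where 17 and 7 had an unadjusted p under 0.05 and DESeq2 called 12 and 7. Higher members numbered 3 without N replicate 2, 6 without bIP replicate 1 and 3 without bIP replicate 2. Members had a median of 0.49, with 0.29 and 0.70 between libraries numbered 1 and 2. CNTN1, a contactin of axons, had 175 and 176 CPM in N, against 24.2 and 12.3 CPM in bIP (log2 fold change 3.27 with SE 0.41, adjusted p = 0.00145). CADM1, a synaptic cell adhesion molecule, had 419 and 664 CPM in N, against 146 and 130.1 CPM in bIP (log2 fold change 1.97 with SE 0.29, adjusted p = 0.00407), and the cadherin CDH6 23.1 and 60.4 CPM in N, against 6.60 and 5.07 CPM in bIP (log2 fold change 2.84 with SE 0.48, adjusted p = 0.0087). PCDH17, a protocadherin, had 256 and 74.01 CPM in N, against 31.3 and 16.7 CPM in bIP (log2 fold change 2.78 with SE 0.50, adjusted p = 0.0121), with N replicate 1 the higher library. Contactins did not move together, as CNTN2, the transient axonal glycoprotein TAG-1, was lower with 24.3 and 54.7 CPM in N, against 143 and 311 CPM in bIP (log2 fold change −2.52 with SE 0.46, adjusted p = 0.0127). Also lower were the protocadherin PCDH7, with 4.41 and 4.27 CPM in N, against 22.5 and 33.5 CPM in bIP (log2 fold change −2.69 with SE 0.36, adjusted p = 0.00225), and FLRT3, a ligand of latrophilins and Unc5 receptors, with 57.4 and 20.2 CPM in N, against 185 and 174 CPM in bIP (log2 fold change −2.21 with SE 0.43, adjusted p = 0.0176). PCDH17, CNTN2 and FLRT3 were named after their values were seen. CDH6 and FLRT3 were not called without N replicate 2 (adjusted p = 0.0654 and 0.0555). CDH6, PCDH17 and CNTN2 were not called without bIP replicate 2 (adjusted p = 0.0597, 0.0777 and 0.0781). PCDH17 was not called in the fit to 4 libraries (adjusted p = 0.0576). Over 1.5 times moved were the log2 fold changes of PCDH17 (1.62 without N replicate 1).

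Some regulators of RNA processing and chromatin were called, where the shares over all genes tested were 1.06% higher and 1.48% lower. Of 26 tested neuronal RNA-binding and splicing genes, edgeR called 3 higher and 0 lower in N, where 10 and 1 had an unadjusted p under 0.05 and DESeq2 called 3 and 0. Higher members numbered 0 without N replicate 2 and 0 without bIP replicate 2. Their median log2 fold change was 0.61, with 0.57 and 0.57 between libraries numbered 1 and 2. RBFOX1, a splicing factor of neurons, had 118 and 224 CPM in N, against 26.3 and 24.4 CPM in bIP (log2 fold change 2.75 with SE 0.52, adjusted p = 0.0147), and CELF4, a regulator of synaptic transcripts, 484 and 488 CPM in N, against 141 and 153 CPM in bIP (log2 fold change 1.73 with SE 0.38, adjusted p = 0.0328). CELF6 had 166 and 226 CPM in N, against 69.4 and 45.04 CPM in bIP (log2 fold change 1.78 with SE 0.35, adjusted p = 0.0176), but on the human genome its log2 fold change was 0.90 (adjusted p = 0.464). PTBP1, the splicing repressor of progenitors, was listed at 0 throughout the chimpanzee table. It had 111 and 114 CPM in N on the human genome, against 165 and 170.1 CPM in bIP (adjusted p = 0.151). Of 40 tested chromatin remodelling and repression genes, edgeR called 2 higher and 4 lower in N, where 5 and 9 had an unadjusted p under 0.05 and DESeq2 called 4 and 5. Lower members numbered 1 without N replicate 2, 2 without bIP replicate 1 and 1 without bIP replicate 2. The median of the list was −0.05, with 0.06 and −0.14 between libraries numbered 1 and 2. SMARCA2, the ATPase BRM of the BAF remodelling complex, had 431 and 399 CPM in N, against 63.9 and 48.9 CPM in bIP (log2 fold change 2.88 with SE 0.28, adjusted p = 0.000313). DPF1, the neuronal BAF subunit BAF45B, had 208 and 335 CPM in N, against 61.5 and 36.5 CPM in bIP (log2 fold change 2.47 with SE 0.56, adjusted p = 0.0381). Both subunits were higher in N, without overlap, which held for every called gene. CHD7, a chromatin remodeller mutated in CHARGE syndrome, had 262 and 94.7 CPM in N, against 769.6 and 1067 CPM in bIP (log2 fold change −2.36 with SE 0.39, adjusted p = 0.00784). TET1, which oxidises methylcytosine, was at −1.50 (adjusted p = 0.017), RCOR2, a corepressor of the CoREST family, at −1.36 (0.0373), and HMGB2 at −2.30 (0.0496). DPF1 and HMGB2 were named after their values were seen. RCOR2 was not called without N replicate 1 (adjusted p = 0.0765). RBFOX1, CELF4, CELF6, DPF1, TET1, RCOR2 and HMGB2 were not called without N replicate 2 (adjusted p = 0.0567, 0.0745, 0.083, 0.117, 0.127, 0.191 and 0.0516). CELF4, RCOR2 and HMGB2 were not called without bIP replicate 1 (adjusted p = 0.12, 0.102 and 0.0744). RBFOX1, CELF4, CELF6, DPF1, TET1, RCOR2 and HMGB2 were not called without bIP replicate 2 (adjusted p = 0.0757, 0.132, 0.151, 0.2, 0.0961, 0.188 and 0.0864). HMGB2 was not called in the fit to 4 libraries (adjusted p = 0.121). A library moved the log2 fold change by over 1.5 times for HMGB2 (−3.94 without N replicate 1).

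**Figure D4:**
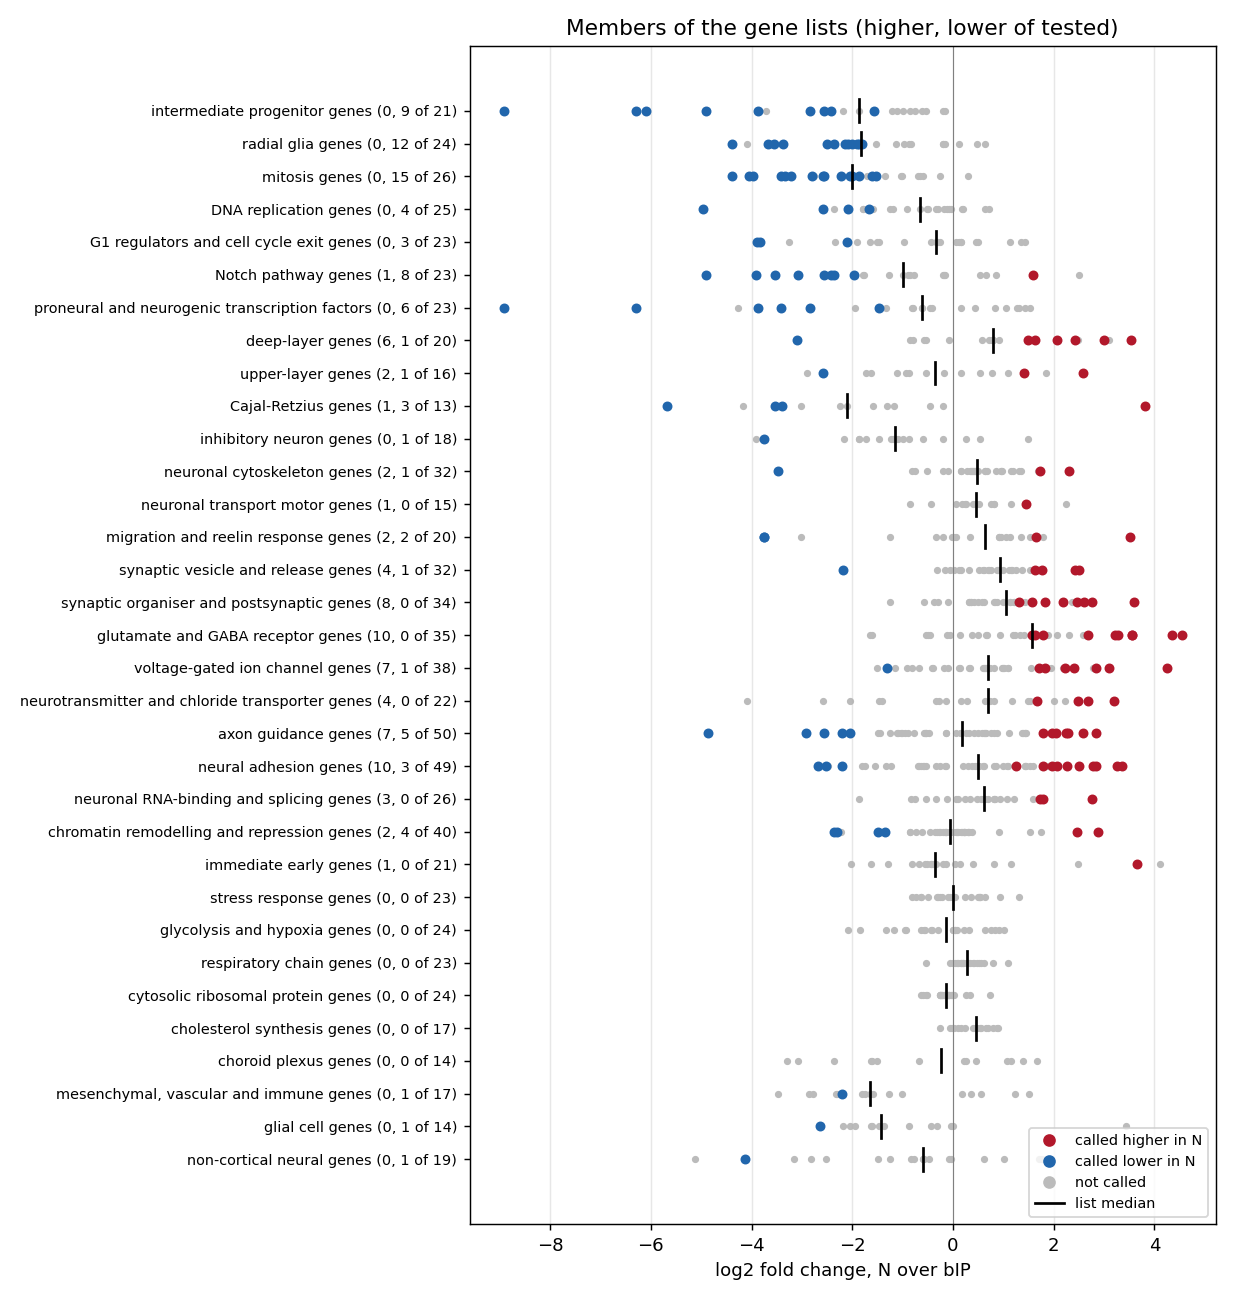
Log2 fold change, N over bIP, of every tested member of the 33 gene lists, 1 row per list, with the numbers called higher, called lower and tested after each name. Red and blue points were called higher and lower in N, grey points were not called, and black lines are list medians. Genes without counts in a population are drawn at their bound. Calls lie to the left for the intermediate progenitor, radial glia and mitosis lists and to the right for the receptor list, while the synaptic vesicle and channel lists each hold 1 lower call, VAMP1 and CACNA2D1.

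Lists of stimulation, stress, metabolism and protein synthesis held a single called gene, where 1.06% of all genes tested were called higher and 1.48% lower. Of 21 tested immediate early genes, edgeR called 1 higher and 0 lower in N, where 3 and 2 had an unadjusted p under 0.05 and DESeq2 called 1 and 2. Over the list the median was −0.35, with −0.10 and −0.05 between libraries numbered 1 and 2. The called gene was NR4A3, an orphan nuclear receptor, with 66.3 and 43.7 CPM in N, against 6.10 and 2.67 CPM in bIP (log2 fold change 3.65 with SE 0.48, adjusted p = 0.00205). Of 23 tested stress response genes, edgeR called 0 higher and 0 lower in N, where 2 and 2 had an unadjusted p under 0.05 and DESeq2 called 1 and 0. At the median the log2 fold change was 0.01, with −0.01 and 0.03 between libraries numbered 1 and 2. Of 24 tested glycolysis and hypoxia genes, edgeR called 0 higher and 0 lower in N, where 2 and 3 had an unadjusted p under 0.05 and DESeq2 called 0 and 1. The middle log2 fold change of the list was −0.14, with 0.07 and −0.62 between libraries numbered 1 and 2. Of 23 tested respiratory chain genes, edgeR called 0 higher and 0 lower in N, where 3 and 0 had an unadjusted p under 0.05 and DESeq2 called 0 and 0. The list had a median log2 fold change of 0.28, with 0.40 and 0.19 between libraries numbered 1 and 2. Of 24 tested cytosolic ribosomal protein genes, edgeR called 0 higher and 0 lower in N, where 0 and 0 had an unadjusted p under 0.05 and DESeq2 called 0 and 0. Members had a median of −0.14, with −0.07 and −0.30 between libraries numbered 1 and 2. Of 17 tested cholesterol synthesis genes, edgeR called 0 higher and 0 lower in N, where 3 and 0 had an unadjusted p under 0.05 and DESeq2 called 0 and 0. Their median log2 fold change was 0.46, with 0.44 and 0.34 between libraries numbered 1 and 2. HSPH1, a heat shock protein, had 166 and 225 CPM in N, against 102 and 103 CPM in bIP (adjusted p = 0.0761; 0.036 by DESeq2). ENO2, the neuronal enolase, had 846 and 778 CPM in N, against 446 and 462 CPM in bIP (adjusted p = 0.175). Ribosomal protein transcripts summed to 12220 and 7178 CPM in N, against 12960 and 8959 CPM in bIP, and the sum was lower in the library numbered 2 of all 4 sorted populations. A p that misses the threshold with 2 libraries a population does not show that these genes were alike.

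Markers of further cell types were examined in the same fit, where the shares called over all genes tested were 1.06% higher and 1.48% lower. Of 14 tested choroid plexus genes, edgeR called 0 higher and 0 lower in N, where 2 and 5 had an unadjusted p under 0.05 and DESeq2 called 0 and 3. The median of the list was −0.23, with −0.50 and −0.27 between libraries numbered 1 and 2. Their sum was 69.6 and 108 CPM in N, against 105 and 97.95 CPM in bIP. TTR, the transthyretin of choroid plexus, had 15.6 and 24.5 CPM in N, against 51.4 and 63.2 CPM in bIP (adjusted p = 0.136; 0.0239 by DESeq2). Of 17 tested mesenchymal, vascular and immune genes, edgeR called 0 higher and 1 lower in N, where 1 and 7 had an unadjusted p under 0.05 and DESeq2 called 1 and 3. Over the list the median was −1.64, with −0.51 and −1.27 between libraries numbered 1 and 2. Their sum was 141 and 124 CPM in N, against 215 and 211 CPM in bIP. That sum covers all tested members, of which only a few are named here. COL1A1, the fibrillar collagen of mesenchyme, had 5.49 and 5.83 CPM in N, against 5.20 and 34.6 CPM in bIP, highest in bIP replicate 2, and the microglial adaptor TYROBP had no counts in N. The microglial marker AIF1 was listed at 0 in all chimpanzee libraries. On the human genome AIF1 had 0.31 and 0.264 CPM in N, against 2.08 and 0.763 CPM in bIP (adjusted p = 0.202). PDGFRB, the receptor by which pericytes are known, had 31.6 and 7.94 CPM in N, against 116 and 67.2 CPM in bIP (log2 fold change −2.21 with SE 0.50, adjusted p = 0.0387). Of the defining glial markers, the astrocyte filament GFAP had 2.17 and 0.993 CPM in N, against 3.88 and 5.90 CPM in bIP, and the oligodendrocyte factor SOX10 had 2.01 and 1.81 CPM in N, against 3.77 and 1.02 CPM in bIP. Of 14 tested glial cell genes, edgeR called 0 higher and 1 lower in N, where 1 and 4 had an unadjusted p under 0.05 and DESeq2 called 0 and 3. At the median the log2 fold change was −1.42, with −0.79 and −0.55 between libraries numbered 1 and 2. Their sum was 36.5 and 25.2 CPM in N, against 60.7 and 46.9 CPM in bIP. ALDH1L1, an astrocyte enzyme, had 2.09 and 1.04 CPM in N, against 8.39 and 11.2 CPM in bIP (log2 fold change −2.64 with SE 0.49, adjusted p = 0.0134). Of 19 tested non-cortical neural genes, edgeR called 0 higher and 1 lower in N, where 0 and 2 had an unadjusted p under 0.05 and DESeq2 called 0 and 1. The middle log2 fold change of the list was −0.60, with −0.29 and −0.32 between libraries numbered 1 and 2. Their sum was 54.5 and 40.7 CPM in N, against 101 and 133 CPM in bIP. LHX9, a homeobox factor, had 6.61 and 0.345 CPM in N, against 47.8 and 75.1 CPM in bIP (log2 fold change −4.13 with SE 0.96, adjusted p = 0.0432). The part of these transcripts in the differences described above was not tested. PDGFRB and ALDH1L1 were not called without N replicate 2 (adjusted p = 0.0823 and 0.0802). PDGFRB was not called without bIP replicate 1 (adjusted p = 0.123). LHX9 was not called without bIP replicate 2 (adjusted p = 0.098). PDGFRB, ALDH1L1 and LHX9 were not called in the fit to 4 libraries (adjusted p = 0.114, 0.0842 and 0.0859). Values that moved by over 1.5 times without a library were those of PDGFRB (−3.52 without N replicate 1) and LHX9 (−7.46 without N replicate 1).

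On the human genome, where 16353 genes were tested, 377 were higher and 561 lower in N, which is 2.31% and 3.43%. Of the 314 higher genes that this table also tested, 314 had the same direction there and 307 were called. Of the 411 lower ones, 411 had the same direction and 406 were called. The remaining 62 higher and 113 lower genes are not symbols of the human table, so their calls rest on the chimpanzee genome alone. Among the genes described here, these include MIR137HG and GABRA3, called higher, and COL4A5, COL4A6 and SOX3, called lower. DCX, which was not called, is not a symbol of the human table either. BRIP1, a helicase of DNA repair, differed by more than 1 log2 unit between genomes, at −4.36 on the chimpanzee and −2.98 on the human genome, and stayed called (adjusted p = 0.00246 on the human genome). STRIT1 had 0 counts in both N libraries on the chimpanzee genome, where it was at least 15.1-fold lower, and missed the threshold on the human genome (adjusted p = 0.0605). Among the 819 genes of the lists, 817 were rows of the chimpanzee table and 797 were tested, of which 143 were called. Those with no counts in any chimpanzee library but with counts on the human genome included CCND1, NEFM and ACTL6B. CCND1 (cyclin D1) had 14.5 and 5.11 CPM in N on the human genome, against 15.1 and 12.1 CPM in bIP (adjusted p = 0.707). NEFM, a neurofilament subunit, had 76.5 and 66.3 CPM in N there, against 26.6 and 94.9 CPM in bIP (adjusted p = 0.841). ACTL6B, the neuronal BAF subunit BAF53B, had 155 and 224 CPM in N there, against 118 and 168 CPM in bIP (adjusted p = 0.7).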

How the data were processed

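Bulk RNA-seq was made from 8 libraries, 2 each of N, bIP, bRG and aRG. The authors deposited raw read counts by gene symbol, in a table on each of 2 genomes, panTro6 (chimpanzee) and hg38 (human), made with STAR per the submitters' processing notes. Not given in the sources used here are its version, the annotation, the counting program and the strand setting. Named rows numbered 60583 for chimpanzee and 18137 for human, and all human symbols occurred in both. A row with no gene name held 0.00545% to 0.00771% of counts and was left out. Since counts of 2 (21576 values) outnumbered counts of 1 (16443) on the chimpanzee genome, halved counts were also tested. Counts include PCR copies, and zero floors of 3 counts cover counting error only.

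Genes were filtered with filterByExpr (minimum count 10) and scaled by TMM. All 8 libraries entered a negative binomial fit with 1 coefficient for each population (4 residual degrees of freedom) in edgeR 4.0.16 (glmQLFit, glmQLFTest, with limma 3.58.1) in R 4.3.3, and N was contrasted with bIP. Tests were two-sided and adjusted over all genes tested by the Benjamini-Hochberg method. The common biological coefficient of variation was 0.629. DESeq2 1.42.0 was an alternative. SEs come from the quasi-likelihood F statistic. Simulated data with a smaller spread than these and large inserted differences served only to check the code. They do not give error rates at the spread seen here.

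Named genes were the 14 largest rises and falls past the threshold with at least 10 CPM in the higher population, no overlap between libraries and a regular symbol, 10 identity genes, and per list up to 4 called members of smallest p, or 2 by unadjusted p where none was called. Exceptions are stated, and a few genes that the rule names are not reported here. The members and the 33 gene lists were chosen with earlier results of these data known. Alternatives were other filters, scalings, tests, library sets, a replicate block and the human table. Overlapping loci were looked up by symbol in RefSeq for a different assembly (NHGRI_mPanTro3-v2.0), with no coordinates taken from it.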

Additional observations from a re-analysis of the deposited data

How the results depend on the processing

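No called gene changed sign under an alternative that tested it, but without overlap between the populations a sign could hardly change. Without a low-count filter 1008 genes were higher and 1256 lower, DESeq2 called 1044 and 1529, and the fit to 4 libraries gave 222 lower; the cause was not tested. Leaving out a library gave 111 to 450 higher and 304 to 700 lower genes. Nothing in the labels says that replicate numbers mark a shared batch, and same-numbered libraries correlated weakly in their deviations (0.09 between N and bIP, and 0.05 to 0.1 over all population pairs), although MALAT1 and ribosomal protein levels differed by number in all 4 populations. A replicate block gave 1140 higher and 1025 lower genes with 8 libraries, so that 52.7% of calls were higher, against 41.8% without it. With 4 libraries the block gave 1054 and 753, where 58.3% were higher, against 59.1% without it. The 900 calls were all kept with the block in 8 libraries, as were 814 of 899 tested with the block in 4. Among named genes without a call, a block in 8 or 4 libraries called BCL11B, TBR1, NEUROD2, NEUROD6, STMN2, HSPH1, ENO2 and TTR. DESeq2 size factors kept 875 of the 900 calls, halved counts 885, robust estimation 895, and a minimum of 5 CPM in 2 libraries 817 of 848 tested. The fit to 4 libraries kept 475 of 899 tested, and leaving out a library kept 700 (N replicate 1), 425 (N replicate 2), 612 (bIP replicate 1) or 380 (bIP replicate 2). Leave-one-out fits moved the median log2 fold change over all genes to between −0.25 and 0, from −0.1. Among named genes that were not called, leave-one-out values changed sign for GAD1 (−1.13 to 1.18, with 0.38 without N replicate 1), RELN (−1.66 to 0.52) and SLC17A7 (−0.027 to 0.54). With 2 libraries a population, differences of genes near the floor of 0.116 to 0.129 CPM in N were not resolvable.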

Other observations

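All genes of this section were picked after their values were seen, so they stand for themselves and not for a family or pathway. The genes of 3 subunits of soluble guanylate cyclase, the receptor of nitric oxide, were called higher in N. GUCY1A1 had 138 and 319.6 CPM in N, against 18.7 and 17.5 CPM in bIP (log2 fold change 3.66 with SE 0.69, adjusted p = 0.0147). GUCY1A2 had 172 and 141 CPM in N, against 20.8 and 23.99 CPM in bIP (log2 fold change 2.80 with SE 0.30, adjusted p = 0.000583), and GUCY1B1 154 and 86.5 CPM in N, against 24.4 and 12.6 CPM in bIP (log2 fold change 2.70 with SE 0.39, adjusted p = 0.00349). SPHKAP, an anchor of protein kinase A, had 253 and 302 CPM in N, against 24 and 21.2 CPM in bIP (log2 fold change 3.62 with SE 0.43, adjusted p = 0.00116), and PRKACB, a catalytic subunit of that kinase, 257 and 273 CPM in N, against 81.3 and 65.9 CPM in bIP (log2 fold change 1.85 with SE 0.27, adjusted p = 0.0035). ARPP21, a phosphoprotein regulated by cyclic AMP, had 273 and 264 CPM in N, against 18.9 and 28.6 CPM in bIP (log2 fold change 3.50 with SE 0.42, adjusted p = 0.00124). MGLL and FAAH, enzymes that break down endocannabinoids, were also higher, with log2 fold changes of 3.43 for MGLL (adjusted p = 0.0102) and 1.86 for FAAH (adjusted p = 0.0188). CHRM1, a muscarinic acetylcholine receptor, had 27.8 and 40.01 CPM in N, against 2.37 and 4.29 CPM in bIP (log2 fold change 3.35 with SE 0.58, adjusted p = 0.0102). FAAH was not called without N replicate 2 (adjusted p = 0.141). FAAH was not called without bIP replicate 1 (adjusted p = 0.114). GUCY1A1 was not called without bIP replicate 2 (adjusted p = 0.0708). FAAH was not called in the fit to 4 libraries (adjusted p = 0.0667).

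A second set of genes was called lower in N. The collagen IV chains COL4A5 and COL4A6, which share a head-to-head promoter region in mammals, had 24.4 and 25.5 CPM in N, against 239 and 277 CPM in bIP (log2 fold change −3.37 with SE 0.25, adjusted p = 0.000152) and 50.96 and 21.8 CPM in N, against 344 and 452 CPM in bIP (log2 fold change −3.45 with SE 0.40, adjusted p = 0.00092). LAMB2, a laminin chain, was at −3.27 (adjusted p = 0.00029) and ITGA2, a collagen-binding integrin, at −3.78 (adjusted p = 0.000152). In the radial glia COL4A5 averaged 373 CPM in bRG and 478 CPM in aRG. Of the SOX factors, SOX5 was called higher (above), while SOX1, SOX3, SOX6 and SOX21 had log2 fold changes of −2.12, −3.47, −2.34 and −4.32 (adjusted p = 0.00573, 0.00418, 0.00467 and 0.00283). ZFHX4, a large zinc-finger homeodomain factor, had 8.89 and 11.8 CPM in N, against 125 and 188 CPM in bIP (log2 fold change −3.92 with SE 0.32, adjusted p = 0.000154). TSHZ2 and NR2E1 (TLX), a nuclear receptor of neural stem cells, were at −3.93 and −3.46 (adjusted p = 0.000347 and 0.00019). FGFR3 was at −1.97 (adjusted p = 0.00785) and the Wnt receptor FZD2 at −3.09 (adjusted p = 0.0126). CHRNA3, a nicotinic acetylcholine receptor subunit, had 11.6 and 12.6 CPM in N, against 118 and 121 CPM in bIP (log2 fold change −3.31 with SE 0.32, adjusted p = 0.000313) and was highest in bIP of the 4 populations.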
